A study of Nicotiana tabacum with 9 samples.

Results

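Genes for vesicle traffic and small GTPases were followed in a DNA affinity purification sequencing (DAP-seq) study of 2 transcription factors in tobacco. In DAP-seq, fragments of naked genomic DNA are mixed with a bead-bound transcription factor that was made without cells, and the fragments it retains are read by sequencing. The members were the genes of either deposited gene table whose description held a word for this machinery, such as ras-related, vacuolar protein sorting, vesicle, exocyst, syntaxin, coatomer, clathrin, dynamin, ADP-ribosylation, GTPase, trafficking, oxysterol-binding, GRV2 or protein transport, with kinases and transporters left out. This rule took 42 of the 1884 genes in the tables and used no score. The AmMIXTA table listed 36 of them at any score (85.7%, against 88.2% of the 1884 genes) and the NtZFP8 table listed 22 (52.4%, against 51.7%), with 16 in both.

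The 9 samples were 3 replicates each of Halo-tagged AmMIXTA, Halo-tagged NtZFP8 and Halo-tagged nuclear-targeted GFP, the negative control. AmMIXTA is a MYB factor from snapdragon of the R2R3 type, and NtZFP8 is a zinc finger protein of the C2H2 type from tobacco. All samples used DNA of leaf primordia of wild-type Petit Havana SR1 plants, bound outside the cell as purified fragments. The deposited values are 1 peak list per protein, of 29197 peaks for AmMIXTA and 20957 for NtZFP8, with 1 score per peak called by the authors against GFP and no value per replicate. Spread between replicates can therefore not be given, the read depth is unknown, and no test across samples was possible. The peak shape score is the authors' own value, has no unit, and ranks peaks within the list of 1 protein. A peak passed the authors' criteria with a score above 2 and a p-value under 0.05. Among the members' peaks of both proteins, lower deposited p-values went with higher scores, so the p-value is no evidence beyond the score.

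Membrane traffic moves proteins and lipids between the endoplasmic reticulum, Golgi, endosomes, vacuole and cell surface. Small GTPases of the Rab and ARF families mark membranes and recruit coats, motors and tethers, coats such as coatomer and clathrin shape vesicles, dynamins constrict membranes, tethers such as the exocyst catch a vesicle at its target, and SNARE proteins fuse it there. In plants the exocyst carries material to growing parts of the cell surface, and sorting at endosomes decides what reaches the vacuole.

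Past the criteria were 27 members for AmMIXTA and 17 for NtZFP8, and 14 of these were past them for both proteins. These counts are 64.3%, 40.5% and 33.3% of the 42 members (95% Wilson intervals 49.2 to 77.0, 27.0 to 55.5 and 21.0 to 48.4, counting error only). Over all 1884 genes the shares were 63.4%, 40.0% and 31.4%, so the members were found about as often as genes of the tables in general. A further 13 members were past the criteria for AmMIXTA alone (31.0%, against 32.0% of all genes) and 3 for NtZFP8 alone (7.14%, against 8.60%). Together 30 members were past the criteria for at least 1 protein (71.4%, against 72.0% of all genes), and the remaining 12 had no peak above 2. Of the AmMIXTA members past the criteria 51.9% were also past them for NtZFP8, against 49.5% of all AmMIXTA genes. The reverse share was 82.4%, against 78.5% of all NtZFP8 genes. Among members past the criteria, the highest peak of a gene had a median score of 2.78 for AmMIXTA (27 genes, 2.02 to 25.92) and 3.87 for NtZFP8 (17 genes, 2.06 to 20.59), beside medians of 3.06 and 3.54 over all genes past the criteria for these proteins. Both proteins are compared with the same GFP libraries, so their peaks are not independent of each other.

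A few members stood far above the others. RABB1c-like, GRV2-like and SEC8-like stood above 10 for AmMIXTA and for NtZFP8, which is 7.14% of the members for either protein, against 4.88% and 4.03% of all genes. With a score above 5 there were 7 members for AmMIXTA (16.7%, against 13.8% of all genes) and 4 for NtZFP8 (9.52%, against 11.8%).

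**Figure D1:**
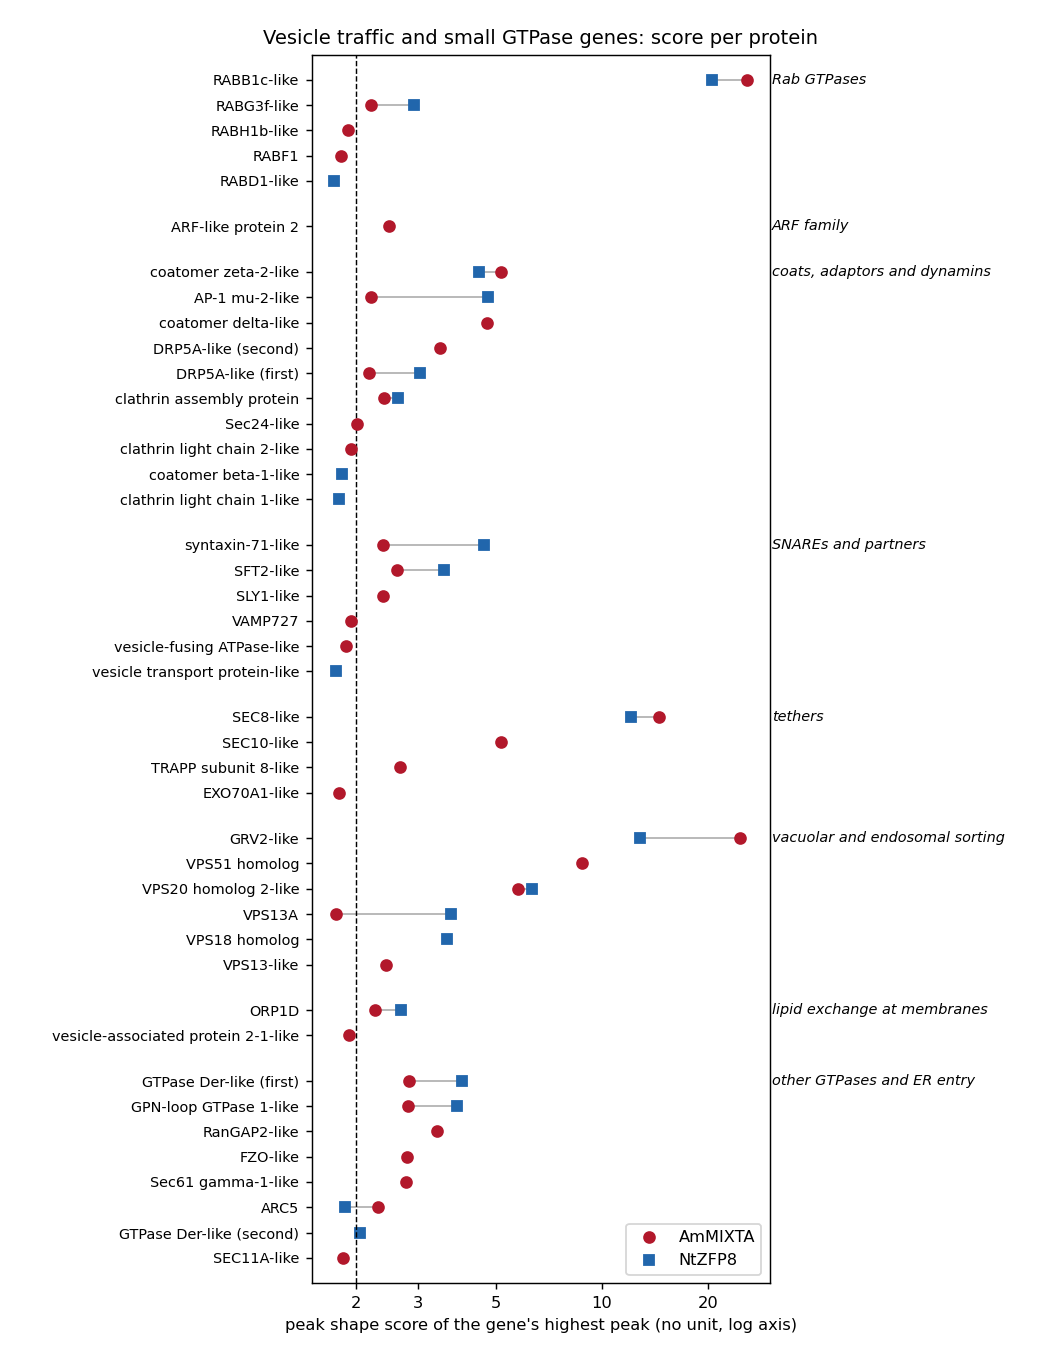
Peak shape score (no unit, log axis) of the highest AmMIXTA peak (red circles) and the highest NtZFP8 peak (blue squares) of each of the 42 genes, grouped by role. Each point is the authors' single value for a peak, a grey line joins the points of a gene listed for both proteins, and the dashed line marks the score of 2; RABB1c-like, GRV2-like and SEC8-like lie above 10 for both.

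The Rab GTPases, switches that give each membrane its identity, held 5 members, of which 2 were past the criteria, both for both proteins. Over all genes 63.4% were past the criteria for AmMIXTA, 40.0% for NtZFP8 and 31.4% for both. No role group was tested against these shares. RABB1c-like (LOC107813663) is named after a Rab of the RABB class, related to animal Rab2, which acts around the Golgi. It scored 25.92 for AmMIXTA and 20.59 for NtZFP8, the first rank among all genes in both tables. Its AmMIXTA peak spanned 392 bp (NW_015806601.1, 103928 to 104319) and its NtZFP8 peak 316 bp (104038 to 104353). The centres lay 10 bp apart, and the p-values in the authors' deposited table were 2.16e-148 for AmMIXTA and 1.67e-94 for NtZFP8. The full lists held no other peak of either protein on that sequence of the assembly. RABG3f-like (LOC107828863), of the Rab7 class at the vacuole, had 2.21 for AmMIXTA (NW_015852158.1, 71765 to 72162) and 2.92 for NtZFP8 (71883 to 72186), with centres 12 bp apart. The tables assign these peaks to a receptor-like kinase gene of the PERK family (LOC107828864) as well, so they cannot be placed at 1 of the 2 genes. The other Rab members did not pass: RABH1b-like, of a Golgi class (LOC107779813, 1.9), and RABF1, of an endosomal class (LOC107794083, 1.81), were listed for AmMIXTA, and RABD1-like, of the Rab1 class between the endoplasmic reticulum and the Golgi (LOC107784791, 1.73), was listed for NtZFP8. ADP-ribosylation factor-like protein 2 (LOC107816065), an ARF relative known for tubulin folding, had 2.48 for AmMIXTA (NW_015812596.1, 198313 to 198765), and its sequence of the assembly held no NtZFP8 peak.

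Coats, adaptors and dynamins formed the largest group, with 10 members. Of these, 7 were past the criteria for AmMIXTA and 4 for NtZFP8, and those 4 were shared. The shares over all genes were 63.4% for AmMIXTA, 40.0% for NtZFP8 and 31.4% for both. Coatomer, the coat of vesicles within the Golgi and back to the endoplasmic reticulum, was represented by 3 subunits that differed from each other. The zeta-2-like subunit gene (LOC107828257) had 5.18 for AmMIXTA (NW_015850037.1, 2927 to 3290) and 4.48 for NtZFP8 (3024 to 3283), with centres 3 bp apart. The delta-like subunit gene (LOC107790687) had 4.72 for AmMIXTA (NW_015918747.1, 4928 to 5332) and no NtZFP8 peak on its sequence. The beta-1-like subunit gene (LOC107794750) was listed for NtZFP8 at 1.83, below the criterion.

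Clathrin-linked members listed for AmMIXTA had scores under 3. The AP-1 complex subunit mu-2-like gene (LOC107799731) encodes the cargo-binding subunit of the adaptor that joins clathrin to the trans-Golgi network. It had 2.20 for AmMIXTA (NW_015931582.1, 14478 to 14798) and 4.75 for NtZFP8 (14518 to 14798), the lowest ratio of the scores among the shared members (0.463), although the centres of both peaks were at the same base. A putative clathrin assembly protein (LOC107814163), of a type that helps clathrin onto membranes, had 2.41 and 2.64 for AmMIXTA and NtZFP8. Clathrin light chain 2-like (LOC107822315, 1.93 for AmMIXTA) and light chain 1-like (LOC107787252, 1.79 for NtZFP8) were below the criterion. Sec24-like (LOC107759474), the cargo-binding subunit of the COPII coat that leaves the endoplasmic reticulum, was the lowest AmMIXTA member to pass, with 2.02 and a neighbouring peak at 1.89. VAMP727, at 1.94, was the highest AmMIXTA member that did not pass.

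A pair of genes described as dynamin-related protein 5A-like behaved differently. The first (LOC107784735) had 2 AmMIXTA and 3 NtZFP8 peaks. Of these, 1 of each protein was past the criteria, at 2.18 for AmMIXTA (NW_015911410.1, 77904 to 78291) and 3.04 for NtZFP8 (77890 to 78305), with centres 47 bp apart, the widest separation among the shared members. The lower AmMIXTA peak (1.75) overlapped none of the NtZFP8 peaks. The second gene of that description (LOC107828725) had 3.47 for AmMIXTA (NW_015851701.1, 43397 to 43752) and no NtZFP8 peak on its sequence.

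SNARE proteins and their partners numbered 6, with 3 past the criteria for AmMIXTA and 2 for NtZFP8 (against 63.4% and 40.0% of all genes). Syntaxin-71-like (LOC107786060), a target-membrane SNARE, had 2.39 for AmMIXTA (NW_015912899.1, 14883 to 15225) and 4.63 for NtZFP8 (14965 to 15255), with centres 23 bp apart. SFT2-like (LOC107827009), named after a yeast Golgi protein linked to SNARE function, had 2.61 for AmMIXTA and 3.57 for NtZFP8, with a further NtZFP8 peak 634 bp away at 1.97. SLY1-like (LOC107829581), of the Sec1 family that binds syntaxins, had 2.39 for AmMIXTA, and the nearest NtZFP8 peak lay 28764 bp away. The same AmMIXTA peak is assigned to a phosphoserine phosphatase-like gene (LOC107829590). VAMP727 (LOC107796795), a plant vesicle SNARE of the endosome and vacuole, had 1.94 for AmMIXTA. The vesicle-fusing ATPase-like gene (LOC107817451), for the enzyme that takes spent SNARE complexes apart, had 1.88 for AmMIXTA, and a vesicle transport protein-like gene (LOC107799411) had 1.75 for NtZFP8. None of these 3 passed.

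Of the 4 tether genes, 3 were past the criteria for AmMIXTA and 1 for NtZFP8 (against 63.4% and 40.0% of all genes). The 3 exocyst subunits had quite different scores. SEC8-like (LOC107791768) had 14.50 for AmMIXTA (NW_015920211.1, 102903 to 103220) and 12.09 for NtZFP8 (102976 to 103217), ranks 45 and 47 among the genes past the criteria. The centres lay 16 bp apart, and the NtZFP8 peak fell inside the AmMIXTA peak. SEC10-like (LOC107827049) had 5.16 for AmMIXTA (NW_015846310.1, 17958 to 18344) with a lower peak at 1.69, and its sequence held no NtZFP8 peak at any score. EXO70A1-like (LOC107773575), of the subunit family that binds the plasma membrane, had 1.79 for AmMIXTA, below the criterion. Subunit 8-like of the TRAPP complex (LOC107825691), a tether at the Golgi, had AmMIXTA peaks at 2.66 and 1.78, set 1601 bp apart.

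Genes for vacuolar and endosomal sorting numbered 6, each of them past the criteria for at least 1 protein: 4 for AmMIXTA and 4 for NtZFP8, with 2 shared. Over all genes 72.0% were past the criteria for at least 1 protein, 63.4% for AmMIXTA and 40.0% for NtZFP8, and with 6 genes this difference was not tested. GRV2-like (LOC107782199) is a DnaJ protein that acts in endosome formation and vacuolar sorting in Arabidopsis. It had 3 AmMIXTA peaks and 1 NtZFP8 peak. The highest AmMIXTA peak (NW_015798089.1, 82913 to 83265) scored 24.72, the second rank among genes, and the NtZFP8 peak (82978 to 83386) scored 12.86, rank 36, with centres 23 bp apart. The ratio of these scores, 1.92, was the highest among the shared members. The other AmMIXTA peaks, 23690 bp away at 2.54 and 5124 bp away at 1.83, had no NtZFP8 peak on them. A subunit of the ESCRT-III complex that cuts vesicles into endosomes, VPS20 homolog 2-like (LOC107793302), had 5.76 for AmMIXTA (NW_015922316.1, 63782 to 64266) and 6.35 for NtZFP8 (64024 to 64304), with centres 37 bp apart.

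The other sorting genes were past the criteria for 1 protein. VPS51 homolog (LOC107821090) encodes a subunit of a complex that tethers endosome-derived vesicles at the Golgi. It had 2 AmMIXTA peaks past the criteria, at 8.80 (NW_015827174.1, 13489 to 14011) and 2.58 (14479 to 14829), and no NtZFP8 peak on its sequence. VPS18 homolog (LOC107829786), of the complexes that tether endosomes and vacuoles before fusion, had 3.62 for NtZFP8 (NW_015855097.1, 10437 to 10733) and no AmMIXTA peak on its sequence. The VPS13 genes, for proteins that in yeast and animals carry lipids between membranes, were split between the factors. VPS13-like (LOC107805970) had 2.43 for AmMIXTA and was missing for NtZFP8. The gene described as putative VPS13A (LOC107823328) had 1.75 for AmMIXTA, below the criterion, and 3.73 for NtZFP8 (NW_015834007.1, 15009 to 15298), with centres 23 bp apart.

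Of the pair of genes for lipid exchange at membrane contacts, oxysterol-binding protein-related protein 1D (LOC107759691) had 2.26 for AmMIXTA (NW_015867607.1, 111296 to 111670) and 2.69 for NtZFP8 (111366 to 111664), with centres 22 bp apart, and vesicle-associated protein 2-1-like (LOC107787792) had 1.91 for AmMIXTA, below the criterion.

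The words of the rule also took 8 genes placed outside vesicle traffic, 6 past the criteria for AmMIXTA and 3 for NtZFP8. The shares over all genes were 63.4% and 40.0%. ADP-ribosylation factor-like protein 2, kept with the ARF family, is not among these 8. GPN-loop GTPase 1-like (LOC107808025), of a family linked in yeast and human cells to nuclear import of RNA polymerase, had 2.81 for AmMIXTA (NW_015945495.1, 34883 to 35284) and 3.87 for NtZFP8 (34999 to 35288), with centres 15 bp apart, at peaks also assigned to an XPB helicase gene (LOC107808029). A pair of genes carried the name of the bacterial ribosome-assembly GTPase Der. The first (LOC107811684) had 2.83 for AmMIXTA (NW_015952521.1, 172928 to 173270) and 4.01 for NtZFP8 (172969 to 173384), with centres 24 bp apart, and the second (LOC107809514) had 2.06 for NtZFP8, the lowest NtZFP8 member to pass. RAN GTPase-activating protein 2-like (LOC107776378), a regulator of nuclear transport, had 3.39 for AmMIXTA (NW_015901713.1, 128441 to 128957). For AmMIXTA, FZO-like (LOC107779756), a chloroplast membrane GTPase, had 2.79 and Sec61 subunit gamma-1-like (LOC107797518), of the translocon of the endoplasmic reticulum, had 2.78. ARC5 (LOC107786051), a dynamin-like protein of chloroplast division, had 2.31 for AmMIXTA and 1.86 for NtZFP8, the highest NtZFP8 member that did not pass. SEC11A-like (LOC107768262), a signal peptidase subunit, had 1.84 for AmMIXTA at a peak also assigned to another gene (LOC107768261).

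The position of the peaks is a measure that the choice of members did not use. At all 14 shared members the highest peaks of AmMIXTA and NtZFP8 overlapped, against 89.0% of all 592 shared genes. Their centres lay a median of 15.5 bp apart (0 to 47 bp), beside a median of 15.0 bp over all shared genes, where the distance reached 22387 bp. Counting any pair of peaks of a gene, all 14 overlapped by at least 1 bp (96.5% of shared genes), by at least 50% of both peaks (91.6%) and with centres within 50 bp (87.8%). The centres showed no fixed side: that of AmMIXTA had the higher position at 8 of the 14 (57.1%, against 63.0% of shared genes). With peaks at any listed score 16 members overlapped, since ARC5 and VPS13A had an overlapping peak just under the criterion for 1 protein.

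**Figure D2:**
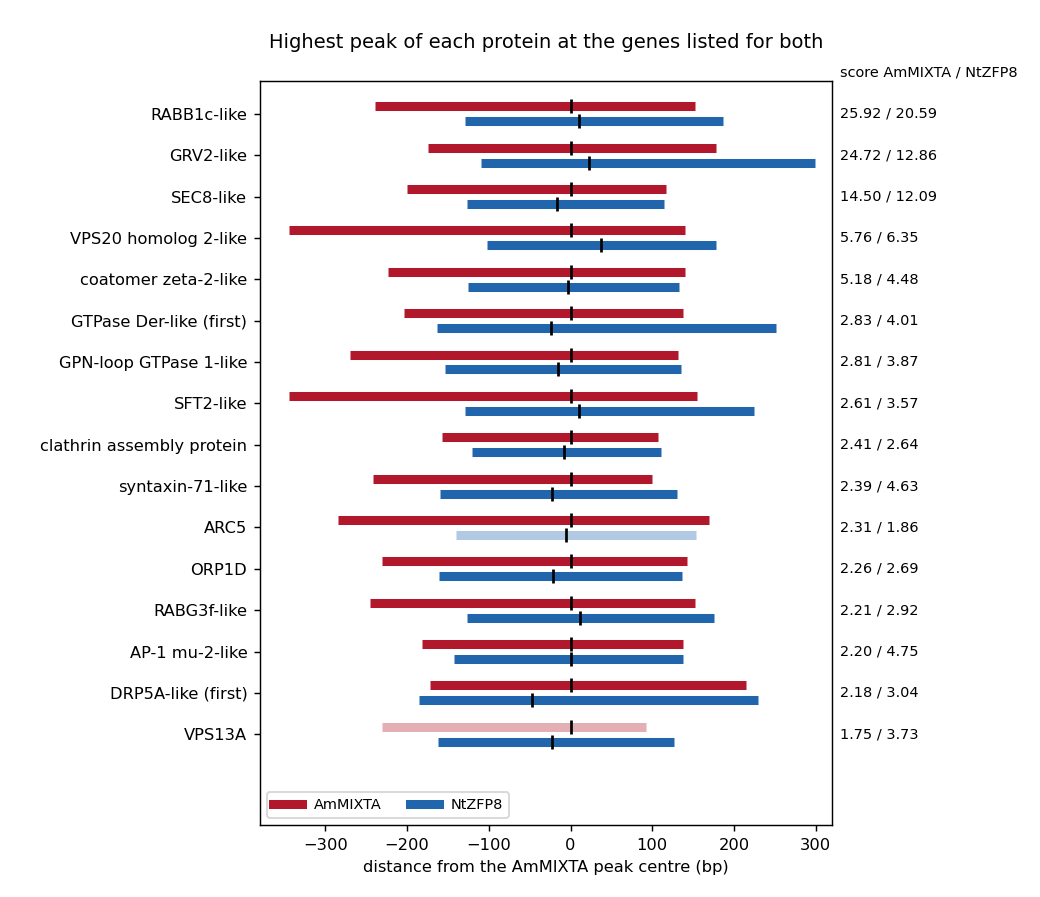
Extent of the highest AmMIXTA peak (red, upper bar) and the highest NtZFP8 peak (blue, lower bar) at the 16 genes listed for both proteins, as the distance in bp from the AmMIXTA centre, with black ticks at the centres and pale bars for peaks at a score of 2 or less. Centres of the 2 proteins lie within 47 bp of each other at every gene, and most AmMIXTA bars reach further to the left.

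The scores of the proteins at the shared members were set side by side. AmMIXTA had the higher score at 4 of the 14 (28.6%, 95% Wilson interval 11.7 to 54.6, counting error only), against 57.4% of all shared genes. These 4 were RABB1c-like, GRV2-like, SEC8-like and coatomer zeta-2-like. The 9 shared members with an AmMIXTA score between 2 and 3 all had a higher score for NtZFP8, with a median ratio of AmMIXTA to NtZFP8 of 0.726. Among all 150 shared genes in this range, AmMIXTA was higher at 27.3%, with a median ratio of 0.879. A low range set on the AmMIXTA score, with NtZFP8 held above 2, by itself favours NtZFP8. Of the 5 shared members above that range 4 were higher for AmMIXTA, against 67.6% of shared genes there. A choice of high AmMIXTA scores by itself favours AmMIXTA, so these counts cannot show whether the order changes with score. Scores of the 2 lists are not known to measure binding on a common scale, and these shares were not tested.

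**Figure D3:**
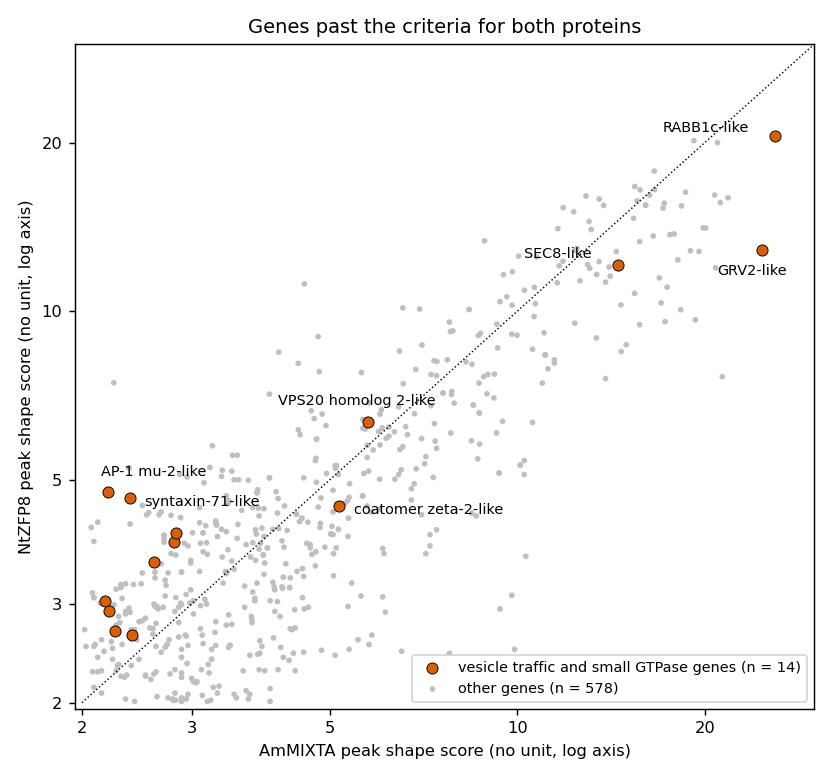
NtZFP8 score against AmMIXTA score (no unit, both axes logarithmic) for the 592 genes past the criteria for both proteins, with the 14 vesicle traffic and small GTPase genes in orange and the other 578 in grey; the dotted line marks equal scores. The 9 members with an AmMIXTA score between 2 and 3 lie above the line, as the choice of that range favours, and RABB1c-like and GRV2-like lie below it at the right.

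The 13 members past the criteria for AmMIXTA alone were compared with the full NtZFP8 list. At 11 of them (84.6%, against 74.5% of the 603 genes of this kind) the sequence of the assembly that holds the gene had no NtZFP8 peak at any score. ARC5 had an NtZFP8 peak below the criterion on its AmMIXTA peak (7.69% of the 13, against 10.6%), and SLY1-like had NtZFP8 peaks elsewhere on its sequence. Of the 13, VPS51 homolog, SEC10-like, coatomer delta-like, the second dynamin-related gene and RAN GTPase-activating protein 2-like scored above 3 (38.5%, against 28.9%). Of the 3 members past the criteria for NtZFP8 alone, VPS18 homolog and the second Der-like gene had no AmMIXTA peak on their sequence (66.7%, against 41.4% of 162 genes). The third, VPS13A, had an AmMIXTA peak below the criterion on its NtZFP8 peak (33.3%, against 35.2%).

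The AmMIXTA peaks at the 13 members past the criteria for AmMIXTA alone also differed in form from those at the 14 shared members. Their median width was 452 bp (275 to 523 bp), against 369.5 bp (265 to 501 bp) at shared members, and the same medians over all genes were 414 bp and 396 bp. The most common distance from the centre to the end of an AmMIXTA peak was 174 bp, found in 5603 peaks of the full list. In 10 of the 13 the centre lay within 4 bp of this distance from 1 end of the peak (76.9%), against 2 of the 14 shared members (14.3%). Over all genes these shares were 61.4% and 20.9%. The VPS51 homolog peak, for example, ran 348 bp before its centre and 174 bp after it, and that of SEC10-like 175 bp before and 211 bp after. TRAPP subunit 8-like (245 and 129 bp), SLY1-like (299 and 152 bp) and ARC5 (285 and 169 bp) were the exceptions among the 13. The distance and its tolerance were chosen after the values were seen. A recurring distance is not peculiar to AmMIXTA peaks. At the shared members RABB1c-like, RABG3f-like, VPS20 homolog 2-like and SFT2-like, the NtZFP8 peak began at -139 bp from its centre. The same held at oxysterol-binding protein-related protein 1D, the first dynamin-related gene, GPN-loop GTPase 1-like and the first Der-like gene. That distance was shorter at SEC8-like, coatomer zeta-2-like, GRV2-like, syntaxin-71-like and the clathrin assembly protein, and longer at AP-1 mu-2-like. It recurred at VPS13A, VPS18 homolog and many genes that are no members. Its share among NtZFP8 peaks was not counted, so it cannot be set beside the shares of the AmMIXTA distance. The part of peak form in which genes were listed for AmMIXTA alone was not tested.

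**Figure D4:**
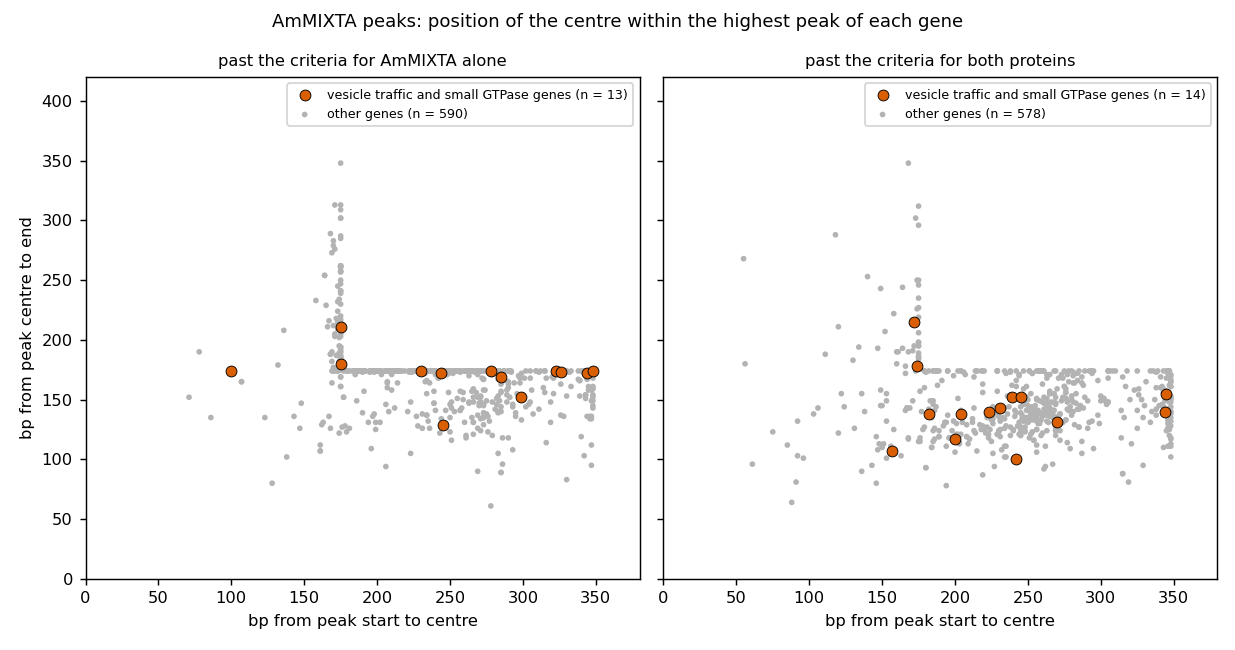
Distance in bp from the start of a gene's highest AmMIXTA peak to its centre (horizontal axis) and from the centre to its end (vertical axis), for genes past the criteria for AmMIXTA alone (left) and for both proteins (right), with vesicle traffic and small GTPase genes in orange and other genes in grey. On the left 10 of the 13 orange points lie within 4 bp of 174 bp on at least 1 axis, and on the right 2 of 14 do.

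More than 1 peak was listed for 7 of the 36 members in the AmMIXTA table (19.4%, against 8.0%, 133 of its 1662 genes). In the NtZFP8 table this held for 2 of the 22 (9.09%, against 14.6% of its genes). These differences were not tested. At GRV2-like and VPS51 homolog a further AmMIXTA peak was past the criteria. The other 5 of these AmMIXTA members, and both NtZFP8 members, had just 1 peak above 2.

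Further genes, not all of the endomembrane system, were counted from a list of other words, such as Golgi, V-type proton, importin, autophagy and phosphatidylinositol. It took 34 genes, 22 past the criteria for AmMIXTA, 13 for NtZFP8 and 9 for both. These are 64.7%, 38.2% and 26.5%, near or below the 63.4%, 40.0% and 31.4% of all genes. The highest of them was GPI1-like (LOC107831959), for the first step of GPI anchor synthesis, with 13.76 for AmMIXTA and 15.45 for NtZFP8. Golgi SNAP receptor complex member 1-1-like (LOC107800523), a SNARE that the rule's words do not take, had 4.52 for AmMIXTA and 3.08 for NtZFP8. The lipid kinase gene FAB1B-like (LOC107823115), for a phosphoinositide of late endosomes, had 3.56 and 4.16. Reticulon-like protein B2 (LOC107771076), which bends the endoplasmic reticulum, had 5.06 and 4.79. The list's groups below were picked after their values were seen. Subunits of the V-type proton ATPase, the pump that acidifies endosomes and the vacuole, numbered 7, of which 5 were past the criteria for AmMIXTA (2.21 to 3.68, against 63.4% of all genes) and none was listed for NtZFP8 at any score, against 51.7% of all genes. Of the 6 importins, carriers of nuclear import, 4 were past the criteria for AmMIXTA and 3 for NtZFP8, and 5 were listed for NtZFP8. For all genes these shares were 63.4%, 40.0% and 51.7%. Of the 3 autophagy genes, 3 were past the criteria for AmMIXTA and 1 for NtZFP8, against 63.4% and 40.0% of all genes. None of these small groups was tested. The tropomyosin-like gene of this list (LOC107823291) matched by accident. Besides the importins, the words also took a chloroplast and a mitochondrial GTP-binding protein gene and a translation release factor gene. The shares of the list are therefore not those of endomembrane genes alone.

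A further deposited list of 618 peaks carries no protein name. Its peaks lay on those of 2 members (4.76%, against 2.87% of all genes), RABB1c-like and the first Der-like gene.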

How the data were processed

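The labels describe 9 DAP-seq samples of genomic DNA, 3 per protein. Per the labels' protocols, 1000 ng of DNA sonicated for 20 min was offered to each bead-bound protein. The series' design text names the tobacco genome of Sierro and colleagues as the mapping target. The aligner, the peak caller and how replicates were joined are not stated there or in the labels.

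The score and the p-value of a peak are the authors' deposited values. Deposited gene tables tie 1874 AmMIXTA and 1235 NtZFP8 lines to genes, by an unstated rule, and each line matched a peak centre of the full list. A gene's value is that of its highest peak. Position relative to exons or promoters, and sequences, were not analysed here for want of a genome of that build.

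Overlaps (at least 1 bp) were computed with Python 3.11.15, by a function tested on simulated peaks. Wilson intervals were computed with SciPy 1.17.1. Members, lists and roles were chosen with earlier results of these data known. By rule, all members were named with their score, and coordinates given for the 12 highest, the highest of each role, and members of 1 protein alone above 3; others were added after seeing values. Sec61 was placed by function outside traffic. Alternatives were other score criteria, descriptions filled in where blank (160 NtZFP8 lines), members without non-traffic genes, stricter overlap, the other protein's full list, and the mean over a gene's peaks.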

Additional observations from a re-analysis of the deposited data

Results flagged for a closer look

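A list of 618 peaks stands in both deposited workbooks without a protein name, and none of its regions equals a region of either full list. It held peaks at a pair of the members, which lie on peaks of both AmMIXTA and NtZFP8. At RABB1c-like its peak (NW_015806601.1, 104025 to 104221) had a score of 9.33 and a deposited p-value of 5.29e-21, and lay 1608 bp from that gene and 19387 bp from its other neighbour (LOC107813654). At the first Der-like gene its peak (NW_015952521.1, 172998 to 173233) had a score of 2.14 and lay within the gene (distance 0). Both were noted because they are signals in a list that no label ties to the comparison of AmMIXTA or NtZFP8 with GFP. Peaks on this list were found for 4.76% of the members and 2.87% of all 1884 genes. No label names the protein behind the list, so the peaks are not assigned to AmMIXTA, NtZFP8 or GFP.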

How the results depend on the processing

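No paired analysis was possible because the lists hold no value per replicate, and for the same reason no replicate could be left out. With a score above 3 the members numbered 10 for AmMIXTA and 13 for NtZFP8, and the share over all genes was not computed there. With a score above 5 they numbered 7 for AmMIXTA (16.7%, against 13.8% of all genes) and 4 for NtZFP8 (9.52%, against 11.8%). The share of NtZFP8 members found for both proteins was 82.4% with the authors' criteria, 38.5% with a score above 3 (5 of 13) and 100% above 5 (4 of 4), since 9 of the 14 shared members have an AmMIXTA score between 2 and 3. The share of AmMIXTA members found for both stayed between 44.4% and 57.1% under the 5 alternatives tried, around 51.9%. Over all genes these shares were 78.5% for NtZFP8 and 49.5% for AmMIXTA with the authors' criteria. They were not computed over all genes at other scores, so the changes cannot be read as particular to the members. Looking up the full list of the other protein changed neither share, and filling blank descriptions added no member past the criteria. Leaving the 8 genes placed outside traffic out of the 42 members gave 21 for AmMIXTA and 14 for NtZFP8, against 63.4% and 40.0% of all genes. Over every listed member, the median score was 2.42 for AmMIXTA and 3.595 for NtZFP8, and with the mean over a gene's peaks it stayed at 2.78 and 3.87. Overlap held at 14 members under each stricter definition. The share without non-traffic genes and overlap at any score were alternatives added after seeing the data. Read depth is unknown, so a gene missing from a list was not detectable there rather than shown to be unbound.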
